A study of Mus musculus with 6 samples.

Results

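The genes described here are the markers of the oligodendrocyte lineage and of myelin in the dorsal hippocampus of mice in which the long non-coding RNA Snhg11 was knocked down. They were chosen by name, as a list of 30 genes out of the 55401 in the files. Of these, 25 are genes of myelin and of maturing oligodendrocytes (Mbp, Mog, Mag, Mobp, Cnp, Cldn11, Ermn, Opalin, Mal, Tspan2, Ugt8a, Fa2h, Aspa, Enpp6, Myrf, Sox10, Olig1, Olig2, Nkx6-2, Sirt2, Gsn, Evi2a, Hapln2, Gjc3 and Bcas1). The other 5 (Pdgfra, Cspg4, Gpr17, Lhfpl3 and Ptprz1) were grouped as precursor genes. Dorsal hippocampi of 6 WT mice made up the samples, 3 given Control-ASO and 3 given Snhg11-ASO, and total RNA was sequenced without sorting cells. The mice were wild-type male littermates of the Ts65Dn line, 4 months old, so none of them carried the trisomy. An antisense oligonucleotide (ASO) is a short modified DNA-like strand that pairs with an RNA and has it cut. Both groups received one by stereotaxic injection into the dorsal dentate gyrus of each hemisphere. Control-ASO holds the bases of Snhg11-ASO in a scrambled order, so surgery and oligonucleotide load were shared by both groups, and no uninjected hippocampus was in the comparison. The labels give replicate numbers and do not name animals, so the p-values below measure the spread between these samples only.

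Oligodendrocytes wrap axons in myelin, a stack of membrane rich in galactolipids and in a few abundant proteins. They arise throughout life from precursor cells that carry the receptor Pdgfra and the proteoglycan Cspg4 (NG2), pass through a brief committed stage marked by Gpr17 and Enpp6, and then switch on the myelin genes under Olig2, Sox10 and Myrf. In the hippocampus myelin is densest in the white matter that covers it and along its fibre tracts, while precursor cells are spread through all its layers. Gpr17 is listed here with the precursor genes, and Enpp6, Sox10 and Olig2 with the myelin genes, so neither list is a pure stage. In bulk tissue, fewer cells of a type and less RNA per cell cannot be told apart.

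Libraries held 28951250 to 43997537 read pairs assigned to genes, and every one of the 30 genes had at least 47 pairs in each sample. Levels are given as CPM (read pairs scaled to the library total and TMM factor), in the order of replicates 1, 2 and 3 of each group. Snhg11 itself was counted at 551, 436 and 209 CPM in Control-ASO and at 139, 65.4 and 69.4 CPM in Snhg11-ASO, with no overlap (log2 fold change -2.13, SE 0.43; edgeR adjusted p = 0.395, DESeq2 adjusted p = 6.2e-05). Snhg11-ASO replicate 1 stood apart from the other libraries. Its Spearman correlation across the 19969 genes tested was 0.955 to 0.959 with the other samples, which reached 0.979 to 0.991 among themselves. Genes of the choroid plexus, the secretory tissue of the ventricles, also differed between samples whatever their group. Their 9 markers summed to 2919, 194 and 2048 CPM in the controls and to 2076, 367 and 234 CPM in Snhg11-ASO.

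None of the 30 genes passed the test between the ASO groups with all 6 samples. In edgeR (quasi-likelihood test), 0 of the 25 myelin genes and 0 of the 5 precursor genes had an adjusted p under 0.05, and the background was 0 of all 19969 genes (0.00%). The smallest adjusted p was 0.598 (Myrf) among the myelin genes and 0.647 (Pdgfra and Cspg4) among the precursor genes. DESeq2 called none of the 30 either, against 1.29% of all genes. At an unadjusted p under 0.05, 1 myelin gene was higher in Snhg11-ASO (Myrf), beside 3.68% of all genes, and 0 genes of the 30 were lower, beside 4.43% of all genes. In direction the lists parted. Of the 25 myelin genes, 21 had a fitted fold change above 0 and 4 below, with a median log2 fold change of 0.27. All 5 precursor genes were below 0, with a median of -0.19. Over all genes tested, 10316 lay above 0 and 9653 below, and the median was 0.01.

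The myelin genes varied more between the samples of one group than between the groups. Relative to the Control-ASO mean, the median of the 25 myelin genes on the log2 CPM scale was -0.29, 0.45 and -0.09 in Control-ASO replicates 1, 2 and 3. It was -0.78, 0.66 and 0.47 in Snhg11-ASO replicates 1, 2 and 3. The largest SD of these sample medians within a group was 0.79, above the fitted group difference of 0.27. Control-ASO replicate 2 was the highest control for 25 of the 25 genes, where 33.7% of all genes had their highest control there. Snhg11-ASO replicate 2 was the highest of the 6 samples for 18 of 25, against 10.4% of all genes. Snhg11-ASO replicates 2 and 3 both lay above every control for 12 of 25, against 14.7% of all genes. Snhg11-ASO replicate 1 was the lowest of the 6 samples for 16 of 25, against 32.5% of all genes. It lay over 1 log2 unit below the Control-ASO mean for 9 of 25, against 7.69% of all genes.

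**Figure D1:**
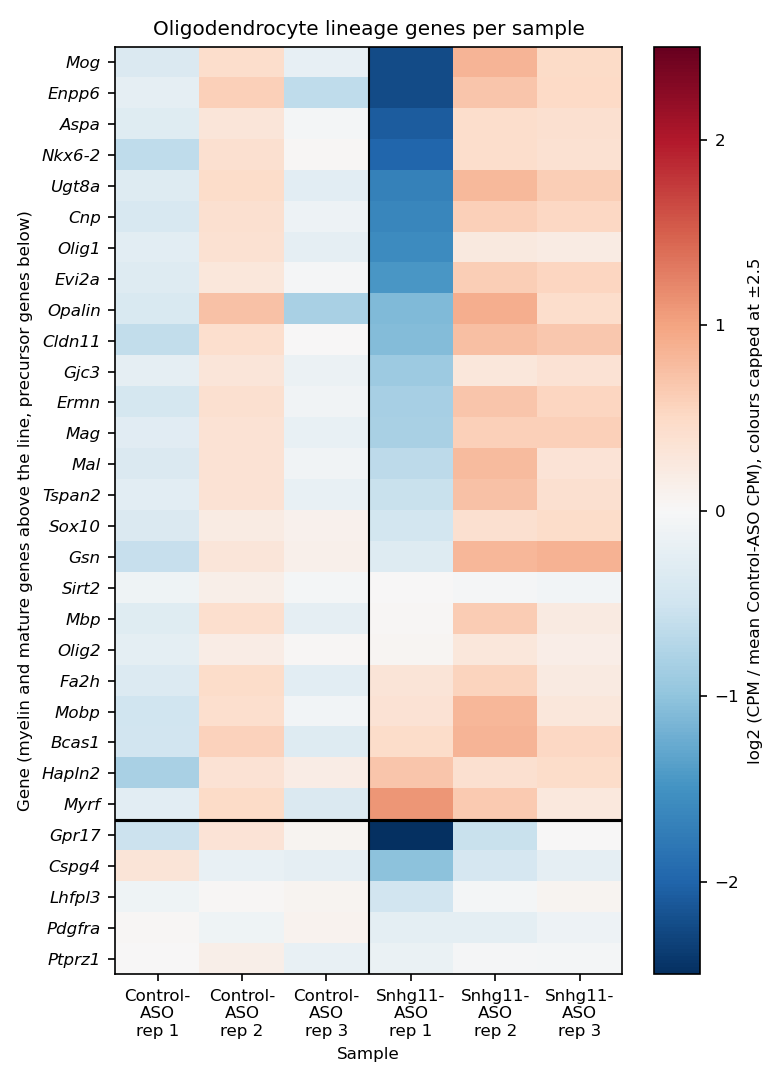
Heat map of the 30 genes (rows) in the 6 samples (columns). Colour gives the log2 ratio of each sample's CPM to the mean CPM of the 3 Control-ASO samples, capped at 2.5 in either direction. Myelin genes are ordered by their value in Snhg11-ASO replicate 1, where Mog and Enpp6 are lowest and Myrf is highest; Control-ASO replicate 2 and Snhg11-ASO replicates 2 and 3 are mostly above 0.

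Snhg11-ASO replicate 1 did not lower the myelin genes evenly. The difference from the Control-ASO mean (log2 CPM) was -2.18 for Mog, -2.09 for Enpp6, -2.04 for Aspa, -1.88 for Nkx6-2, -1.65 for Ugt8a, -1.58 for Cnp, -1.53 for Olig1, -1.42 for Evi2a and -1.03 for Cldn11. In the same library Mbp (0.06), Olig2 (0.05) and Sirt2 (0.01) sat at the Control-ASO mean. Fa2h (0.37), Mobp (0.41), Bcas1 (0.54), Hapln2 (0.76) and Myrf (1.14) sat above it. So Mog, ranked 159 from the lowest of 19969 genes in this library, and Myrf, ranked 18652, stood near opposite ends, although oligodendrocytes make both. Across the 25 myelin genes, this difference had a Spearman rho of 0.21 with the genomic span of the gene, 0.29 with its exonic length and 0.19 with its level. These are descriptions of 1 library over genes that share cells and depth.

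The upstream sequence is shown for both of the genes that were lowest in that library, Mog and Enpp6, and for Mobp, an abundant myelin gene that was not lowered there. Mog lies on the minus strand of chromosome 17 (37010743 to 37023398), Enpp6 on the plus strand of chromosome 8 (46986887 to 47096762) and Mobp on the plus strand of chromosome 9 (120149707 to 120181484). Each sequence is from RefSeq (GRCm38.p6), on the strand of the gene, and ends at the base before the annotated gene. The regions are chr17:37023399-37023648, chr8:46986637-46986886 and chr9:120149492-120149706. Capitals mark ACAANG or its reverse complement, the core that SOX family factors such as Sox10 are known to bind.
Mog: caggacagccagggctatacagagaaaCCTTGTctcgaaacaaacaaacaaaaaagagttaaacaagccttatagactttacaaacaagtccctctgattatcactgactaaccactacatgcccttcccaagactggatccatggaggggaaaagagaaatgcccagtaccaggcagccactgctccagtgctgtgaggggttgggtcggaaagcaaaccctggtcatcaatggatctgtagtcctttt
Enpp6: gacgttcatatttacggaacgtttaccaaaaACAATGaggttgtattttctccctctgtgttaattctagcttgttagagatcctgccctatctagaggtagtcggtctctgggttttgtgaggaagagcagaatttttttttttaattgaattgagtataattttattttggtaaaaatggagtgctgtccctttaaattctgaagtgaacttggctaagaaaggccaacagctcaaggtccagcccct
Mobp: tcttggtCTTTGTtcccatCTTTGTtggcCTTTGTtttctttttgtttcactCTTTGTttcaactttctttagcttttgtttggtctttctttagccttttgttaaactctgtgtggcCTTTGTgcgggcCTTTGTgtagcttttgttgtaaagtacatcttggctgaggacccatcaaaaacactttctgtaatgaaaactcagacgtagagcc
Mog and Enpp6 each hold 1 match in 250 bases. Mobp holds 6 in 215 bases, all of them the same CTTTGT in a stretch rich in T. Other genes did not follow this order. Sirt2, which was not lowered in that library either, holds 1 upstream. Mag and Ermn, below every control there, hold 2 each, while Ugt8a and Cldn11, also below every control, hold 0. A link between matches and levels was not tested. Promoter entries were matched for 22 of the 30 genes, some with more than 1 entry, and 13 of the 22 held the motif on either strand in the 250 bases before the start. Of all 32851 promoter windows of that length, 36.3% held it. The motif CAGCTG, a core bound by Olig factors, which cannot share bases with the first, was in 4 of the 22 and in 13% of all windows. For both motifs the counts over the 22 are of genes, which had 27 entries together. The shares of all windows are per window, so the 2 measures are not like for like. A match is a run of letters and not a bound site.

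Among the structural proteins of myelin, all 10 genes had fitted fold changes above 0, from 0.13 to 0.51, and none passed the test. Mbp, the basic protein that zips the inner faces of the membrane together, had the highest level per exonic length of the 30 genes, 84.3 CPM per kb in Control-ASO. It was counted at 578, 954 and 610.3 CPM in Control-ASO and at 727, 1102 and 834 CPM in Snhg11-ASO. The means were 714 ± 208 and 888 ± 193 CPM (SD, n = 3 each), so the groups overlapped (log2 fold change 0.31, SE 0.24, edgeR adjusted p = 0.764). Mobp, a small basic protein of compact myelin and next in level per length (51.3 CPM per kb), was at 249, 471 and 334 CPM in Control-ASO and at 452, 621 and 428 CPM in Snhg11-ASO. Its fold change was the largest of the structural genes (log2 0.51, SE 0.25, edgeR adjusted p = 0.66), and only Control-ASO replicate 2 reached into the range of Snhg11-ASO.

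Mog, a protein of the outermost myelin surface, showed the other pattern. It was counted at 19.4, 34.1 and 21.7 CPM in Control-ASO and at 5.32, 45 and 34.7 CPM in Snhg11-ASO, so the Snhg11-ASO samples held both the lowest and the highest value. Cnp, the enzyme-like protein of the non-compacted myelin, was at 117, 204 and 140.1 CPM in Control-ASO and at 49.8, 233 and 219.7 CPM in Snhg11-ASO. The group means of Mog (25 ± 7.9 and 28.3 ± 20.6 CPM, SD, n = 3) and of Cnp (154 ± 45.2 and 168 ± 102 CPM) differed by far less than the SD of the Snhg11-ASO group. Their edgeR adjusted p was 0.958 and 0.962.

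For the remaining structural genes, as for Mog, Snhg11-ASO replicate 1 was the lowest of the 6 samples. Mag, the adhesion molecule that faces the axon, was at 73.0, 114 and 78.0 CPM in Control-ASO and at 50.2, 134 and 133 CPM in Snhg11-ASO. Cldn11, the claudin of the tight junctions within the sheath, was at 49.4, 101 and 76.1 CPM against 35.5, 128 and 119.9 CPM. Mal, a proteolipid of myelin sorting, was at 88.5, 146 and 107 CPM against 72.3, 196 and 144 CPM. In each of these the other 2 Snhg11-ASO samples lay above all controls, apart from Mal in replicate 3, which lay just below Control-ASO replicate 2. Tspan2, a tetraspanin, and Ermn, a cytoskeletal protein of the late sheath, had fold changes of 0.29 and 0.27. Opalin, a late sialylated membrane protein, had a fold change of 0.31, with 5.40 to 15.6 CPM in Control-ASO and 4.41 to 17.8 CPM in Snhg11-ASO.

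**Figure D2:**
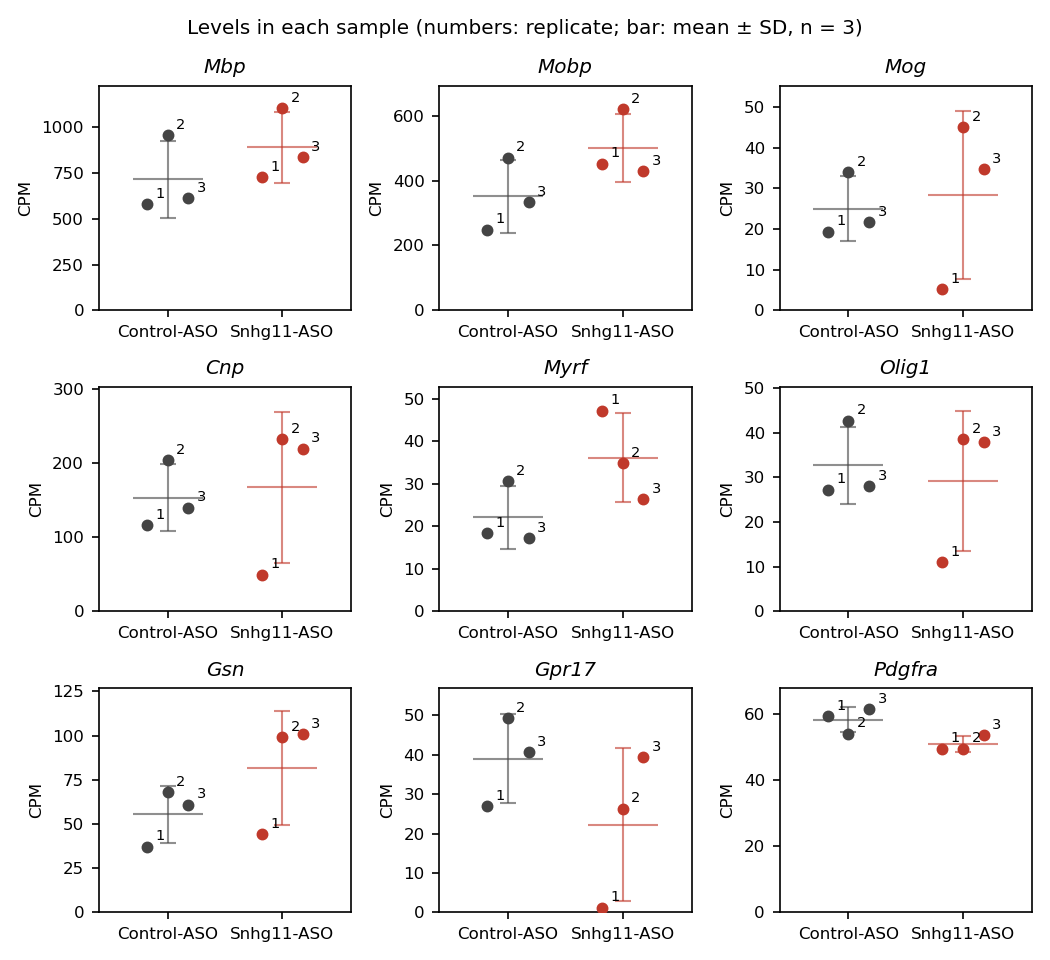
CPM (vertical axis, from 0) of 9 genes in each sample, with the replicate number beside each point and the mean ± SD of 3 samples per group. Replicate 1 of Snhg11-ASO is the lowest point for Mog, Cnp, Olig1 and Gpr17 and the highest for Myrf, and of these 9 genes the groups are separate for Pdgfra only.

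The enzymes divided in the same way. Ugt8a makes galactocerebroside, the main myelin galactolipid, and was counted at 44.5, 76.4 and 46.8 CPM in Control-ASO and at 17.3, 98.4 and 85.2 CPM in Snhg11-ASO. Fa2h hydroxylates the fatty acids of the same lipids, and was at 9.59, 16.8 and 10.1 CPM against 15.2, 17.8 and 14.3 CPM. So in Snhg11-ASO replicate 1 Ugt8a was below every control while Fa2h lay between the controls. Aspa, which splits N-acetylaspartate to supply acetate, was at 14.2, 21.6 and 17.0 CPM against 4.17, 23.9 and 23.2 CPM. Enpp6, a choline phosphodiesterase of newly forming oligodendrocytes, was at 5.54, 9.78 and 4.22 CPM against 1.39, 10.6 and 9.21 CPM. The log2 fold changes of the 4 enzymes were 0.26 (SE 0.58), 0.38 (SE 0.24), -0.04 (SE 0.57) and 0.12 (SE 0.68) in this order, with edgeR adjusted p of at least 0.718.

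Of the transcription factors, Myrf had the highest fitted fold change of the 30 genes. Myrf is the membrane-bound regulator that oligodendrocytes need to turn on and keep their myelin genes. It was counted at 18.4, 30.6 and 17.3 CPM in Control-ASO and at 47.2, 34.8 and 26.4 CPM in Snhg11-ASO, with means of 22.1 ± 7.37 and 36.1 ± 10.4 CPM (SD, n = 3). Snhg11-ASO replicates 1 and 2 lay above all controls and replicate 3 lay below Control-ASO replicate 2. The log2 fold change of 0.71 (SE 0.29) had an unadjusted p of 0.0432 and an adjusted p of 0.598 in edgeR, and an adjusted p of 0.319 in DESeq2. Over the alternatives this adjusted p lay between 0.142 and 0.979. Without Snhg11-ASO replicate 1 the fold change was 0.47 (SE 0.26, edgeR adjusted p = 0.596).

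The other transcription factors of the list did not share the values of Myrf. Sox10, needed throughout the lineage, was at 11.4, 16.8 and 15.7 CPM in Control-ASO and at 10.7, 19.2 and 20.0 CPM in Snhg11-ASO. Olig2, which specifies the lineage, was at 7.48, 10 and 8.99 CPM against 9.10, 10.8 and 9.89 CPM, the narrowest spread of the 5 factors. Its neighbour on chromosome 16, Olig1, was at 27.3, 42.7 and 28.1 CPM against 11, 38.5 and 37.9 CPM. The pair thus parted in Snhg11-ASO replicate 1, where Olig2 was within the control range and Olig1 below every control. Nkx6-2, a homeobox factor of myelinating cells, was at 3.37, 6.90 and 5.34 CPM against 1.31, 7.08 and 6.73 CPM. Up to 67.3% of the pairs at Nkx6-2 lay on the opposite strand, and with both strands counted its fold change moved from -0.04 to 0.03.

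The other proteins of oligodendrocytes held the only myelin gene whose groups did not overlap. Hapln2, a link protein of the extracellular matrix at nodes of Ranvier, was at 5.74, 13.0 and 11.5 CPM in Control-ASO and at 16.2, 13.3 and 13.9 CPM in Snhg11-ASO. Its lowest Snhg11-ASO value and highest Control-ASO value were close (13.3 and 13.0 CPM), and the two-sided exact permutation p was 0.1, the smallest that 3 against 3 samples can give. The log2 fold change was 0.52 (SE 0.29, edgeR adjusted p = 0.69). Over all genes, 7.73% had 3 Snhg11-ASO values above all 3 controls, against 1 of the 25 here. Bcas1, which marks oligodendrocytes that are beginning to myelinate, was at 46.9, 96.8 and 51.9 CPM against 90.1, 117 and 92.9 CPM. Only Control-ASO replicate 2 kept the groups of Bcas1 from separating (log2 fold change 0.62, SE 0.28, edgeR adjusted p = 0.636).

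Gsn, the actin-severing protein gelsolin, was counted at 37.2, 68.2 and 60.9 CPM in Control-ASO and at 44.4, 99.1 and 101 CPM in Snhg11-ASO. Replicate 1 of either group was the low value of its group. Sirt2, a tubulin deacetylase that neurons also express, was nearly flat, at 36.3, 43.1 and 37.5 CPM against 39.1, 38.2 and 37.4 CPM (log2 fold change -0.03, SE 0.10). Control-ASO replicate 2 was its highest sample, as for Mog and Mbp among the controls, while its 3 Snhg11-ASO values lay within 2 CPM of each other. Gjc3, a gap junction protein, had a fold change of 0.02 (SE 0.33). Evi2a, a membrane protein encoded inside an intron of Nf1, had a fold change of 0.16 (SE 0.49), and 34.1% of its pairs at most lay on the opposite strand.

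Leaving out Snhg11-ASO replicate 1, the library that stood apart, changed the myelin genes as a list. Without it, 24 of 25 had a fold change above 0, Sirt2 being the exception, and the median was 0.58 where that of all genes was 0.00. Such a move was not particular to the myelin genes. All 10 microglial markers were then above 0, with a median of 0.51, and so were all 5 ependymal markers tested (median 0.95). Of the 12 astrocyte markers 7 were above 0 (median 0.15), and of the 10 neuronal markers 3 were (median -0.11). In edgeR 12 of the 25 reached an unadjusted p under 0.05, all of them higher in Snhg11-ASO, beside 4.41% of all 20226 genes tested. They were Mog, Mag, Cnp, Cldn11, Ermn, Aspa, Sox10, Ugt8a, Mal, Tspan2, Gsn and Evi2a. None passed the adjusted threshold in edgeR, where 0.00989% of all genes did, and the smallest adjusted p was 0.375 (Gsn). DESeq2 on the same 5 samples called Gsn (adjusted p = 0.0231) and no other of the 30, against 1.72% of all genes. The fold change of Gsn was 0.85 (SE 0.23), and over all alternatives its adjusted p lay between 0.0231 and 0.979. In edgeR without Snhg11-ASO replicate 1, all 9 choroid plexus markers had fold changes below 0, with a median of -2.34. They summed to 367 and 234 CPM in the remaining Snhg11-ASO samples and to 2919, 194 and 2048 CPM in the controls. The part of choroid plexus content in the myelin values of this fit was not tested.

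Other single libraries moved the list as well. The number of myelin genes at an unadjusted p under 0.05 was 5 without Control-ASO replicate 2 (Mbp, Mobp, Myrf, Fa2h and Bcas1), all higher in Snhg11-ASO, beside 3.23% of all genes, and the median was then 0.51. Without Control-ASO replicate 1, Control-ASO replicate 3 or Snhg11-ASO replicate 2 it was 0, with medians of 0.09, 0.18 and 0.00. Without Snhg11-ASO replicate 3 the median was 0.12. With the replicate number as a block, 6 myelin genes were at an unadjusted p under 0.05 and higher, beside 3.99% of all genes, and none passed the adjusted threshold. Those were Mbp (0.0162), Mobp (0.00741), Myrf (0.0267), Fa2h (0.0487), Bcas1 (0.0053) and Gsn (0.00673), with the unadjusted p in parentheses. Each of the 6 was higher in Snhg11-ASO in 3 of 3 pairs of samples with the same number. The block fit that picked these genes rests on the same pairs, so this describes the values and adds no support. Apart from Gsn, none of the 6 was among the 12 genes named above.

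**Figure D3:**
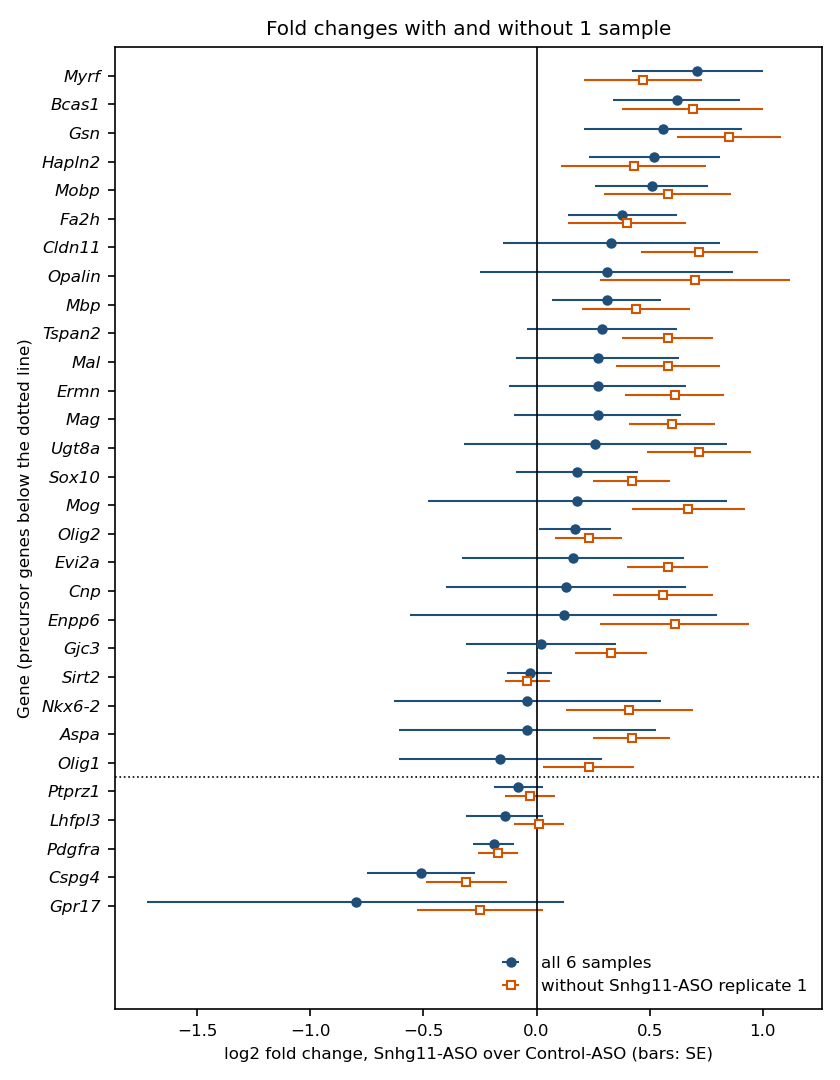
Fitted log2 fold change of Snhg11-ASO over Control-ASO (horizontal axis) with its SE for each of the 30 genes, from all 6 samples (filled circles) and without Snhg11-ASO replicate 1 (open squares). Without that library 24 of 25 myelin genes lie above 0 and their bars are mostly shorter. Of the 5 precursor genes 4 stay below 0, and Lhfpl3 moves to 0.01.

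The precursor genes gave a different picture from the myelin genes. Their median relative to the Control-ASO mean (log2 CPM) was 0.02, 0.03 and 0.07 in the controls. It was -0.47, -0.23 and -0.03 in the 3 Snhg11-ASO samples. The groups of 2 of the 5 genes did not overlap, both with Snhg11-ASO lower, beside 7.70% of all genes. Pdgfra, the receptor through which PDGF drives precursor cells to divide, was at 59.2, 54 and 61.5 CPM in Control-ASO and at 49.5, 49.5 and 53.6 CPM in Snhg11-ASO. Its means were 58.2 ± 3.87 and 50.9 ± 2.36 CPM (SD, n = 3). The log2 fold change of -0.19 (SE 0.09) had an unadjusted p of 0.0726 and an adjusted p of 0.647 in edgeR, and the exact permutation p was 0.1. Cspg4, the NG2 proteoglycan, which pericytes also carry, was at 26.2, 18.5 and 18 CPM against 10.3, 15.6 and 17.9 CPM. Control-ASO replicate 3 and Snhg11-ASO replicate 3 were almost equal, so the separation rested on a small margin (log2 fold change -0.51, SE 0.24, edgeR adjusted p = 0.647). Leaving out replicate 1 of Snhg11-ASO gave Cspg4 a fold change of -0.31, and leaving out replicate 1 of Control-ASO gave -0.33.

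Gpr17, the receptor of the committed stage between precursor and oligodendrocyte, had the widest range of the 30 genes on a log scale. It was counted at 26.9, 49.3 and 40.6 CPM in Control-ASO and at 1.23, 26.3 and 39.3 CPM in Snhg11-ASO. The low value in Snhg11-ASO replicate 1 came from 47 read pairs, against 792 to 1718 in the other libraries. Its difference from the Control-ASO mean was -4.88 log2 units, rank 4 from the lowest of 19969 genes. The group difference rested on this library, with a log2 fold change of -0.80 (SE 0.92, edgeR adjusted p = 0.839) with it and -0.25 (SE 0.28) without it. Up to 37.3% of the pairs at Gpr17 lay on the opposite strand, where its neighbour Lims2 is annotated.

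The other 2 precursor genes differed little between groups. Ptprz1, a receptor phosphatase also made by astrocytes, was at 295, 325 and 256 CPM in Control-ASO and at 259, 286 and 284 CPM in Snhg11-ASO (log2 fold change -0.08, SE 0.11). Lhfpl3, a tetraspan-like membrane protein enriched in precursor cells, was at 13.1, 14.3 and 14.8 CPM against 10.1, 13.6 and 14.7 CPM (log2 fold change -0.14, SE 0.17). Without Snhg11-ASO replicate 1 Lhfpl3 moved to 0.01, and the median of the 5 precursor genes was -0.17.

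Further genes of the lineage were read from 2 longer lists. Of 48 other genes listed for myelin and oligodendrocytes, 36 had fold changes above 0 and 12 below, with a median of 0.20. This list is not limited to oligodendrocytes, since it holds Pex5l, which the paper uses as a marker of CA1. At an unadjusted p under 0.05, 8 of the 48 were higher in Snhg11-ASO and 0 lower, beside 3.68% and 4.43% of all genes, and none passed the adjusted threshold in edgeR. With Snhg11-ASO replicate 1 left out, 43 of the 48 were above 0 with a median of 0.41, and 20 were at an unadjusted p under 0.05, all higher, beside a median of 0.00 and 4.41% of all genes. Cd9, a tetraspanin of myelin that other glia and endothelium also express, was at 24.0, 39.4 and 37.0 CPM in Control-ASO and at 62.8, 57.5 and 66.2 CPM in Snhg11-ASO, with no overlap. Its log2 fold change of 0.89 (SE 0.19) had an adjusted p of 0.415 in edgeR and 0.00582 in DESeq2, which called no other gene of this list with all 6 samples, against 1.29% of all genes. It was 0.89 without Snhg11-ASO replicate 1 as well. DESeq2 without that sample called Cd9 and also Car2 (adjusted p = 0.0104), Plekhb1 (0.045) and Pllp (0.0469), 4 of the 48 against 1.72% of all genes; these last 3 are named after their values were seen. Of the other 7, those with the smallest p were Il33 (0.71), Tmem63a (0.62), Cryab (0.82), Galnt6 (0.54), Gpr37 (0.47) and Apod (1.22), with edgeR log2 fold changes in parentheses. Without Snhg11-ASO replicate 1, Apod was at 0.72 and Cryab at 0.48.

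Of 19 other precursor genes, 7 were above 0 and 12 below, with a median of -0.10, which was -0.01 with Snhg11-ASO replicate 1 left out. Pcdh15, a protocadherin enriched in precursor cells that neurons also express, was at 30.8, 16.9 and 31.0 CPM in Control-ASO and at 9.97, 13.0 and 11.4 CPM in Snhg11-ASO. It was the only gene of the 19 at an unadjusted p under 0.05, where 4.43% of all genes were lower at that p (log2 fold change -1.19, SE 0.25, edgeR adjusted p = 0.415). DESeq2 called it (adjusted p = 0.00268) and no other gene of the list, against 1.29% of all genes. The means were 26.2 ± 8.06 and 11.5 ± 1.51 CPM (SD, n = 3), and without Snhg11-ASO replicate 1 the fold change was -1.10.

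Markers of other cell types were set beside the lineage genes in each sample. The 10 microglial markers summed to 331, 676 and 541 CPM in Control-ASO and to 242, 648 and 758 CPM in Snhg11-ASO, so Snhg11-ASO replicate 1 and Control-ASO replicate 1 were the low samples for microglia as for Mog. Cx3cr1, the fractalkine receptor of microglia, was at 7.84 CPM in Snhg11-ASO replicate 1 and at 32.2 to 55.8 CPM elsewhere. The 12 astrocyte markers summed to 5149, 7458 and 6769 CPM against 4473, 7464 and 7484 CPM, with the same samples low. The 8 endothelial markers split in Snhg11-ASO replicate 1, which was the highest of the 6 samples for 5 of them and the lowest for 3. Over all 19969 genes tested, it was the highest for 6654 and the lowest for 6486. The endothelial markers summed to 176, 153 and 147 CPM against 182, 152 and 156 CPM. The summed level of the 10 neuronal markers moved less, at 5866 to 6151 CPM in Control-ASO and 5002 to 5997 CPM in Snhg11-ASO. By fitted fold change 9 of the 10 were below 0 (median -0.13), as were all 5 precursor genes (median -0.19). The groups of 3 of the 10 did not overlap, all with Snhg11-ASO lower, beside 7.70% of all genes. At an unadjusted p under 0.05 in edgeR, 2 of the 10 were lower, beside 4.43% of all genes. Ttr, the transthyretin secreted by the choroid plexus, was at 1752, 12.9 and 1126 CPM in Control-ASO and at 1192, 85.4 and 37.7 CPM in Snhg11-ASO. The 3 samples highest for Ttr were the 3 lowest for Mog, but not for every myelin gene. Myrf and Hapln2 had their highest value of the 6 samples in Snhg11-ASO replicate 1 (47.2 and 16.2 CPM). The part of these cell types in the myelin values was not tested.

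**Figure D4:**
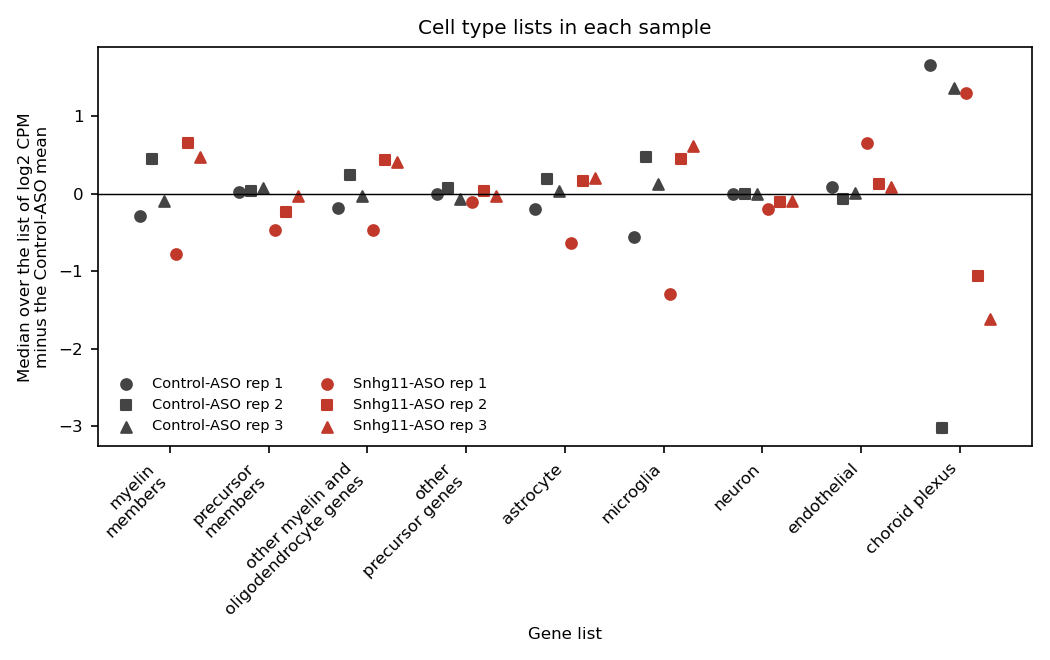
Median over each list of genes (horizontal axis) of log2 CPM minus the Control-ASO mean, 1 point per sample; grey marks Control-ASO, red Snhg11-ASO, and the shape the replicate. Snhg11-ASO replicate 1 is lowest for the myelin genes (-0.78) and for microglia (-1.29), and the choroid plexus list spans the widest range.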

How the data were processed

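Total RNA of 6 dorsal hippocampi was made into libraries with the TruSeq Stranded Total RNA kit. The authors aligned the reads to mm10 (GRCm38) with STAR 2.5.2a, and the deposited values are raw counts of read pairs per gene, as STAR writes them for both strands and for each strand, with no normalization and no pooling. Rsubread is the counting tool given in the paper, and the annotation release is not given in the sources used here. STAR leaves out pairs that map to several places or to more than 1 gene, so overlapping genes are undercounted. The 4 summary lines that name no gene (43.5% to 51.4% of pairs) did not count toward library size.

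Counts of the reverse strand, which the kit predicts and which held 96.22% to 96.76% of stranded gene counts, were used. Names and positions were taken from GENCODE M21, which matched 55141 of 55401 identifiers. Genes were filtered with filterByExpr (minimum count 10), leaving 19969, scaled with TMM, and compared with edgeR's quasi-likelihood test (edgeR 4.0.16, R 4.3.3, limma 3.58.1) and p-values were adjusted by Benjamini-Hochberg over all of them, with a threshold of 0.05. SEs of log2 fold changes were obtained as |log2 fold change|/√F. A prior count of 2 was added for log2 CPM. The scripts were tested on simulated data. Alternatives were DESeq2 1.42.0, its size factors, counts of both strands, no filter, a loess correction for genomic span (span 0.3), the replicate block, and each sample left out. The study removed 1 Snhg11-ASO sample that it does not name, and all 6 were kept here.

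Both groups carry replicate numbers 1 to 3. After subtracting each group's mean, samples with equal numbers had correlations of 0.297, 0.179 and 0.103. Samples with different numbers were not compared in this way, so these values do not show that the samples are paired. The labels state no shared litter or day. The main test left the numbers out, and they entered only as the block in an alternative.

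The members and lists were chosen with earlier results of these data known. All 30 members are named. Of the longer lineage lists, the plan was to name at most 8 genes with the smallest unadjusted p under 0.05. Car2, Plekhb1, Pllp and Pex5l are named beside these. Of each list of other cell types, at most the first 2 markers are named.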

Additional observations from a re-analysis of the deposited data

How the results depend on the processing

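In 16 alternatives, 29 of the 30 genes were called in none, and 16 kept the sign of their fold change in all. No alternative called a precursor gene. DESeq2 called 258 genes in all, and 2 myelin genes were at its unadjusted p under 0.05; the log2 fold change of Snhg11 was then -2.12 with an adjusted p of 6.2e-05. With samples left out, edgeR or DESeq2 called 0 to 347 genes in all (DESeq2 347, 275 and 223 without Snhg11-ASO replicates 1, 2 and 3) and 0 to 1 myelin genes (Gsn, DESeq2 without Snhg11-ASO replicate 1). The number of myelin genes at an unadjusted p under 0.05 then ranged from 0 to 13 (12 in edgeR and 13 in DESeq2 without Snhg11-ASO replicate 1), that of precursor genes from 0 to 1, and the fold change of Snhg11 from -2.57 to -1.83 (DESeq2 -1.94 and -1.96 without Snhg11-ASO replicates 2 and 3). The myelin median ranged from 0.00 without Snhg11-ASO replicate 2 to 0.58 without Snhg11-ASO replicate 1, and the precursor median from -0.25 to -0.17. An arm left with 2 samples shares its estimate of the spread with the other.

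The correction for genomic span left 0 myelin genes and 1 precursor gene at an unadjusted p under 0.05. With the replicate block added, 5 myelin genes were there, with the block alone 6, and with no filter on low counts 3. The block turned the fold changes of Mog (-0.19), Cnp (-0.11), Ugt8a (-0.01), Gjc3 (-0.06), Enpp6 (-0.17) and Evi2a (-0.05), and changed no call. The span correction with the block turned Mog (-0.26), Cnp (-0.18), Ugt8a (-0.02), Gjc3 (-0.12), Enpp6 (-0.15), Evi2a (-0.04), Lhfpl3 (0.10) and Ptprz1 (0.01). The span correction alone turned Gjc3 (-0.05) and Lhfpl3 (0.12), and both strands together turned Nkx6-2 (0.03). None of these fold changes was called before or after. With 1 sample left out the range crossed 0 for Mog (-0.32 to 0.67), Cnp (-0.19 to 0.56), Opalin (-0.13 to 0.88), Aspa (-0.36 to 0.42), Olig1 (-0.42 to 0.23), Nkx6-2 (-0.37 to 0.41), Ugt8a (-0.13 to 0.72), Gjc3 (-0.19 to 0.33), Mal (-0.08 to 0.58), Enpp6 (-0.29 to 0.61), Evi2a (-0.14 to 0.58), Sirt2 (-0.09 to 0.05), Lhfpl3 (-0.25 to 0.01) and Ptprz1 (-0.17 to 0.01). In DESeq2 Olig1 (0.22) and Nkx6-2 (0.40) turned without Snhg11-ASO replicate 1 and Evi2a (-0.07) without replicate 3. The cause was not tested for any of these changes. With 3 samples a group, no member passed the adjusted threshold in edgeR, with or without the block.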
